A study of Oryza sativa with 9 samples.

Results

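Young rice panicles were examined for 10 genes that build the pollen exine and the anther cuticle, among the 37863 genes of the deposited expression table. The genes were taken by their identifiers in the table: *OsACOS12* (Os04g0310800), *DPW* (Os03g0167600), *CYP703A3* (Os08g0131100), *CYP704B2* (Os03g0168600), *OsPKS1* (Os10g0484800), *OsPKS2* (Os07g0411300), *WDA1* (Os10g0471100), *OsC6* (Os11g0582500), *OsABCG15* (Os06g0607700) and *OsABCG26* (Os10g0494300). All 10 were listed, and all 10 had a mean of at least 1 FPKM (reads scaled to gene length and to the reads of the library) over the 9 libraries, the minimum for a test. The FPKM of the libraries rested on 14227327 to 16405688 reads each, totals recovered from the FPKM themselves. Of each total, 99.9 percent lay in genes, so reads outside genes are hardly counted in it. These 10 genes took 0.478 to 0.739 percent of the summed FPKM of a library. The panicles came from 3 genotypes in the *japonica* variety Zhonghua11 (ZH11), with 3 libraries each. ZH11-OE1 overexpresses *GSE9*, a gene of grain shape, under the promoter of a *ubiquitin* gene. ZH11-KO1 carries a knockout of *GSE9* made with Cas9, whose gene was also driven by a *ubiquitin* promoter, and ZH11 is the untransformed wild type. Each transgenic genotype is represented by 1 line, so effects of the line and of *GSE9* cannot be told apart. The panicles were whole and were taken before heading per the labels, or before anthesis per the methods, with no measured stage. The level of *GSE9* was not analysed here, since no identifier used here is paired with it.

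Pollen grains are enclosed in an exine of sporopollenin, a polymer of fatty acid and phenolic units, and the anther is covered by a cuticle of cutin and wax. Most of the lipid units are made in the tapetum, the innermost layer of the anther wall, which feeds the developing microspores. There, acyl-CoA synthetases activate fatty acids, reductases turn them into fatty alcohols, cytochromes P450 hydroxylate them, and polyketide synthases extend them. ABC transporters and lipid transfer proteins then carry the products out of the tapetum to the pollen wall and to the anther surface.

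*OsACOS12*, *DPW*, *CYP703A3*, *CYP704B2*, *OsPKS1* and *OsABCG15* rose in both transgenic lines, with means at 1.80 to 2.605 times the ZH11 mean in ZH11-OE1 and 1.74 to 3.13 times in ZH11-KO1. *OsPKS2* rose to 3.00 times in ZH11-OE1, and its ratio of 2.32 in ZH11-KO1 did not pass the test. *WDA1*, *OsC6* and *OsABCG26* passed in neither line. In ZH11-OE1 vs ZH11, 7 of the 10 genes were higher and 0 lower. Over all 21780 genes tested, 3.76 percent were higher and 10 percent lower. In ZH11-KO1 vs ZH11, 6 of the 10 were higher and 0 lower, against 5.0 percent higher and 3.59 percent lower over all genes tested. In ZH11-OE1 vs ZH11-KO1, 0 of the 10 were higher and 0 lower, against 8.09 percent and 15.8 percent over all genes tested. A gene was called at an adjusted p under 0.05 from limma on log2(FPKM + 1), with Benjamini-Hochberg adjustment over all genes tested. The comparisons of the lines with ZH11 share the ZH11 libraries and are therefore not independent of each other. The 10 genes were chosen with earlier results of these data known, so these shares do not test the 10 as a set. In whole panicles with no measured stage, a difference in stage, more tapetal tissue and more transcript per cell cannot be told apart.

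**Figure D1:**
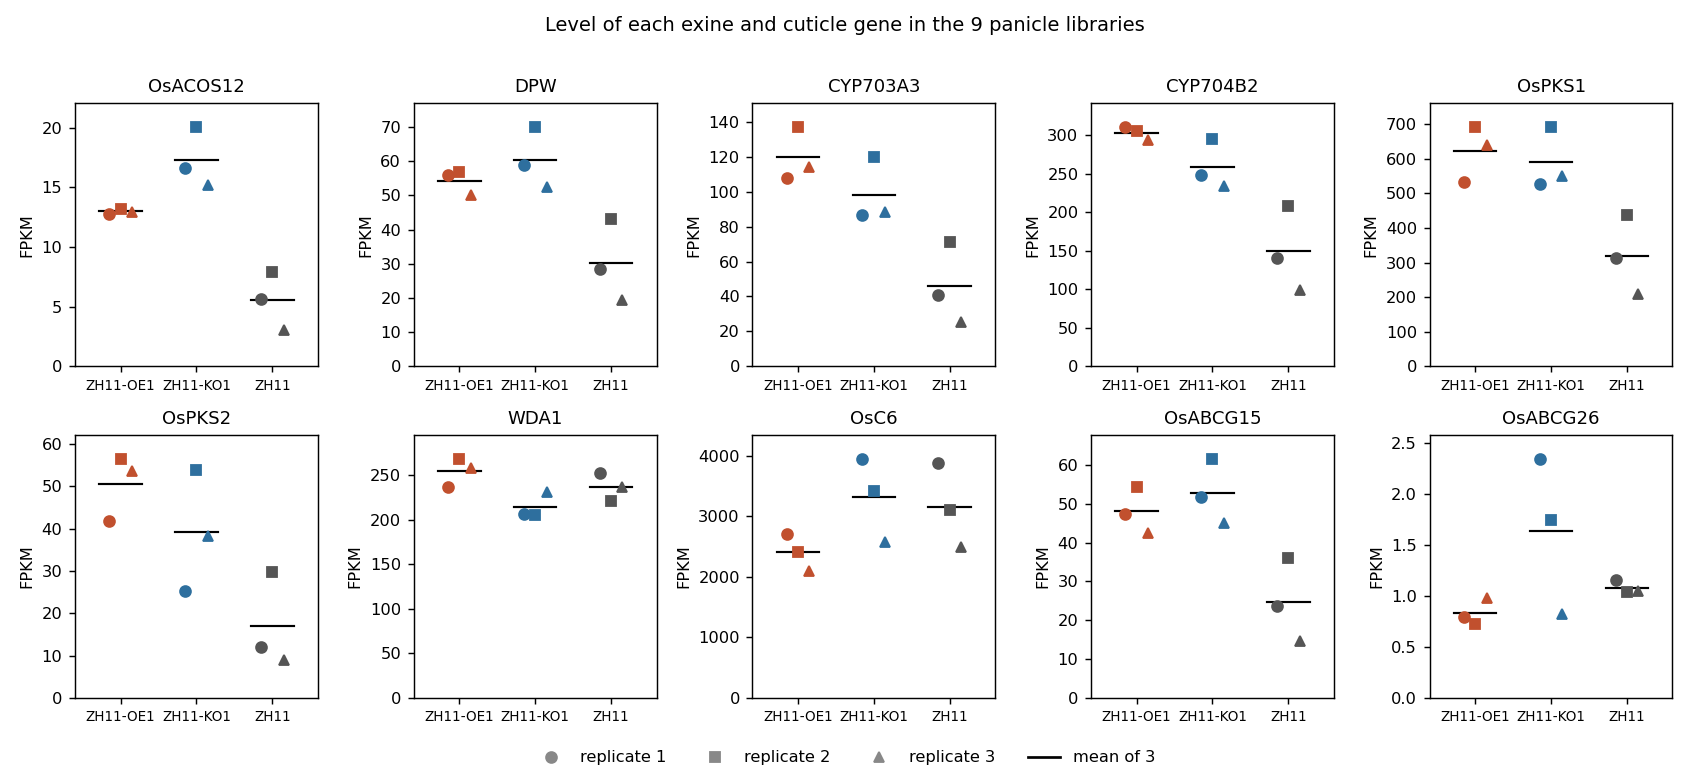
Level in FPKM (y axis, from 0) of each of the 10 genes in the 9 panicle libraries, grouped by genotype, with 1 marker per replicate number and a bar at the mean of 3 libraries. For *OsACOS12*, *DPW*, *CYP703A3*, *CYP704B2*, *OsPKS1* and *OsABCG15*, every ZH11-OE1 and ZH11-KO1 library lies above every ZH11 library, and *OsPKS2* does so in ZH11-OE1 only.

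The pathway opens with *OsACOS12*, an acyl-CoA synthetase that activates fatty acids for sporopollenin. It was at 12.8, 13.2 and 12.96 FPKM in ZH11-OE1 replicates 1, 2 and 3, at 16.6, 20.1 and 15.2 FPKM in ZH11-KO1, and at 5.62, 7.89 and 3.05 FPKM in ZH11. The lowest library of either line was above the highest ZH11 library. Over all genes tested, the libraries did not overlap and were higher in 12.6 percent for ZH11-OE1 vs ZH11 and in 14.2 percent for ZH11-KO1 vs ZH11. Of the 10 genes, 7 and 6 did so, and 0 were entirely lower in ZH11-KO1 than in ZH11, against 16.0 percent of all genes tested. The log2 fold change of *OsACOS12* was 1.17 in ZH11-OE1 vs ZH11 (limma adjusted p = 0.0111, SE 0.23) and 1.55 in ZH11-KO1 vs ZH11 (limma adjusted p = 0.00478, SE 0.23). Its mean rose to 17.3 ± 2.49 FPKM in ZH11-KO1, against 5.52 ± 2.42 FPKM in ZH11 (SD, n = 3 each), a ratio of 3.13. It was the 1 gene of the 10 whose ZH11-OE1 libraries all lay below those of ZH11-KO1, where the log2 fold change of -0.38 did not pass the test (95% confidence interval -0.89 to 0.13, adjusted p = 0.249 from limma). Such a separation was seen in 25.1 percent of all genes tested in ZH11-OE1 vs ZH11-KO1.

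*DPW* encodes a plastid reductase that makes fatty alcohols from fatty acids. Its level was 56.0, 57.0 and 50.1 FPKM in ZH11-OE1, 58.8, 70.0 and 52.6 FPKM in ZH11-KO1, and 28.4, 43.0 and 19.4 FPKM in ZH11. The lines overlapped each other and neither overlapped ZH11. *DPW* was higher by a log2 fold change of 0.89 in ZH11-OE1 vs ZH11 (limma adjusted p = 0.0272, SE 0.22), the smallest of the 7 rises there, and by 1.04 in ZH11-KO1 vs ZH11 (limma adjusted p = 0.0219, SE 0.22). The ratio of *DPW* to *OsACOS12* was 3.87 to 4.38 in ZH11-OE1 libraries and 3.46 to 3.54 in ZH11-KO1 libraries, against 5.06 to 6.36 in ZH11 libraries. These ranges did not overlap, but the ratio was not tested. How often other pairs of genes separate in this way was not counted.

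The cytochromes P450 *CYP703A3* and *CYP704B2* hydroxylate fatty acids within the chain and at its end, and their products enter sporopollenin and anther cutin. *CYP703A3* was at 108, 137 and 114 FPKM in ZH11-OE1, at 86.9, 119.7 and 88.4 FPKM in ZH11-KO1, and at 41.1, 71.3 and 25.4 FPKM in ZH11. *CYP704B2* was at 310.3, 305 and 294 FPKM in ZH11-OE1, at 248, 294 and 234 FPKM in ZH11-KO1, and at 140.2, 209 and 98.8 FPKM in ZH11. For both genes, all libraries of either line were above all ZH11 libraries. *CYP703A3* rose by a log2 fold change of 1.48 in ZH11-OE1 (limma adjusted p = 0.0110, SE 0.29) and 1.19 in ZH11-KO1 (limma adjusted p = 0.0334, SE 0.29). *CYP704B2* rose by 1.08 in ZH11-OE1 (limma adjusted p = 0.0110, SE 0.21) and 0.85 in ZH11-KO1 (limma adjusted p = 0.0358, SE 0.21). *CYP704B2* was the more abundant of the pair throughout, at 2.22 to 2.88 times *CYP703A3* in ZH11-OE1 libraries and 2.46 to 2.86 times in ZH11-KO1 libraries, against 2.92 to 3.89 times in ZH11 libraries. *DPW* and *CYP704B2* lie on chromosome 3 with 12 other genes listed between them. Of these 12, 7 were tested, and 0 were higher in either line vs ZH11, with 2 lower in ZH11-OE1 and 1 lower in ZH11-KO1. Over all genes tested, 3.76 percent were higher and 10 percent lower in ZH11-OE1, and 5.0 and 3.59 percent in ZH11-KO1. With such shares, 7 genes are too few to set this stretch apart from other genes.

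*OsPKS1* and *OsPKS2* encode polyketide synthases that condense fatty acyl units into the polyketide backbone of sporopollenin. *OsPKS1*, with 4809 to 16368 reads per library, was at 534, 692 and 640.3 FPKM in ZH11-OE1, at 527, 691 and 551 FPKM in ZH11-KO1, and at 314, 436 and 209.9 FPKM in ZH11. It ranked 84 among all genes by mean level in ZH11-OE1 and 107 in ZH11-KO1, against 219 in ZH11. *OsPKS2* was at 41.9, 56.6 and 53.6 FPKM in ZH11-OE1, at 25.3, 53.9 and 38.4 FPKM in ZH11-KO1, and at 11.98, 29.8 and 8.86 FPKM in ZH11. Replicate 1 of ZH11-KO1 fell below replicate 2 of ZH11, and this was the 1 overlap between a line and ZH11 among the 7 genes. In ZH11-OE1 vs ZH11, *OsPKS1* rose by a log2 fold change of 1.01 (limma adjusted p = 0.0182, SE 0.23) and *OsPKS2* by 1.70 (limma adjusted p = 0.0170, SE 0.37), the largest rise of the 10. In ZH11-KO1 vs ZH11, *OsPKS1* rose by 0.93 (limma adjusted p = 0.0334, SE 0.23). The log2 fold change of *OsPKS2* in ZH11-KO1 vs ZH11 was 1.28 (SE 0.37, 95% confidence interval 0.45 to 2.11) and missed the threshold (adjusted p = 0.0608 from limma). It passed when replicate numbers entered the model as a block (limma adjusted p = 0.0235 over all 9 libraries). A fit of ZH11-KO1 and ZH11 alone with this block, chosen after seeing the data, gave a limma adjusted p of 0.0163. That pairing by number was assumed from the same data. *OsPKS1* exceeded *OsPKS2* by 11.9 to 12.8 times in ZH11-OE1 libraries and 12.8 to 20.8 times in ZH11-KO1 libraries, against 14.6 to 26.2 times in ZH11 libraries.

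Of the exporters, *OsABCG15*, an ABC transporter required for delivery of lipids from the tapetum, was at 47.3, 54.3 and 42.4 FPKM in ZH11-OE1, at 51.7, 61.6 and 45.1 FPKM in ZH11-KO1, and at 23.7, 36.1 and 14.6 FPKM in ZH11. Its libraries in either line were above every ZH11 library. The log2 fold change was 1.01 in ZH11-OE1 vs ZH11 (limma adjusted p = 0.0278, SE 0.25) and 1.14 in ZH11-KO1 vs ZH11 (limma adjusted p = 0.0251, SE 0.25). *OsABCG26*, a related transporter of the anther cuticle and pollen wall, had few reads, at 0.788, 0.723 and 0.979 FPKM in ZH11-OE1 (30, 30 and 41 reads), at 2.35, 1.74 and 0.826 FPKM in ZH11-KO1 (96, 66 and 30 reads), and at 1.15, 1.04 and 1.05 FPKM in ZH11 (45, 40 and 42 reads). The 3 ZH11-OE1 libraries lay below the 3 ZH11 libraries, as in 21.2 percent of all genes tested, with a log2 fold change of -0.19 that did not pass (95% confidence interval -0.63 to 0.26, adjusted p = 0.571 from limma). It was -0.35 with a pseudocount of 0.1, and -0.11 with quantile normalization. The counting intervals of these libraries overlapped, at 0.532 to 1.13 FPKM in ZH11-OE1 replicate 1 and 0.842 to 1.54 FPKM in ZH11 replicate 1 (exact Poisson, 95%, counting error only). In ZH11-KO1, the libraries differed by 2.84 times among themselves, and the log2 fold change of 0.30 against ZH11 did not pass (95% confidence interval -0.15 to 0.75, adjusted p = 0.384 from limma). Over *OsABCG26*, *OsABCG15* was in excess by 43.3 to 75.1 times in ZH11-OE1 libraries and 22.0 to 54.6 times in ZH11-KO1 libraries, against 13.9 to 34.8 times in ZH11 libraries.

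*WDA1* belongs to the synthesis of very long chain lipids and wax of the anther surface. It was at 237, 269 and 258 FPKM in ZH11-OE1, at 206, 205 and 231 FPKM in ZH11-KO1, and at 253, 221 and 237 FPKM in ZH11, so that the libraries of both lines overlapped those of ZH11. Its log2 fold change was 0.10 in ZH11-OE1 vs ZH11 (95% confidence interval -0.10 to 0.31, adjusted p = 0.479 from limma) and -0.15 in ZH11-KO1 vs ZH11 (95% confidence interval -0.35 to 0.06, adjusted p = 0.350 from limma). These intervals exclude a rise of the size measured for *DPW*, *CYP703A3* or *OsABCG15* in the same comparison. In ZH11-OE1 vs ZH11-KO1, every ZH11-OE1 library of *WDA1* was above every ZH11-KO1 library, as in 18.8 percent of all genes tested. Its log2 fold change there was 0.25 (limma adjusted p = 0.0717, SE 0.09) and passed only when the values were rescaled by median-of-ratios factors (0.29, adjusted p = 0.0428) or quantile normalized (0.34, adjusted p = 0.0278).

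*OsC6* encodes a lipid transfer protein that the tapetum secretes towards the pollen wall and the anther cuticle. It was by far the most abundant of the 10, at rank 5 among all genes by mean level in ZH11-OE1, 6 in ZH11-KO1 and 5 in ZH11. Its level was 2708, 2409 and 2097 FPKM in ZH11-OE1, 3958, 3420.1 and 2582 FPKM in ZH11-KO1, and 3892, 3099.9 and 2499.8 FPKM in ZH11. The libraries of the 3 genotypes overlapped. The log2 fold change was -0.38 in ZH11-OE1 vs ZH11 (95% confidence interval -0.84 to 0.08, adjusted p = 0.243 from limma) and 0.07 in ZH11-KO1 vs ZH11 (95% confidence interval -0.39 to 0.53, adjusted p = 0.867 from limma). Quantile normalization moved these values to -0.054 and -0.078, so the direction of the second turned. That method gives equal ranks the same value in every library, so for a gene at these ranks it cannot show the size of a difference. In ZH11-OE1 vs ZH11-KO1 the log2 fold change was -0.45 (adjusted p = 0.135 from limma) and turned to 0.024 with quantile normalization. It passed there with the replicate block (limma adjusted p = 0.0367), although the numbers were not taken to pair these lines. *OsC6* alone made up 0.323 to 0.416 percent of the FPKM of a ZH11-OE1 library and 0.380 to 0.564 percent of a ZH11-KO1 library, against 0.383 to 0.575 percent of a ZH11 library.

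**Figure D2:**
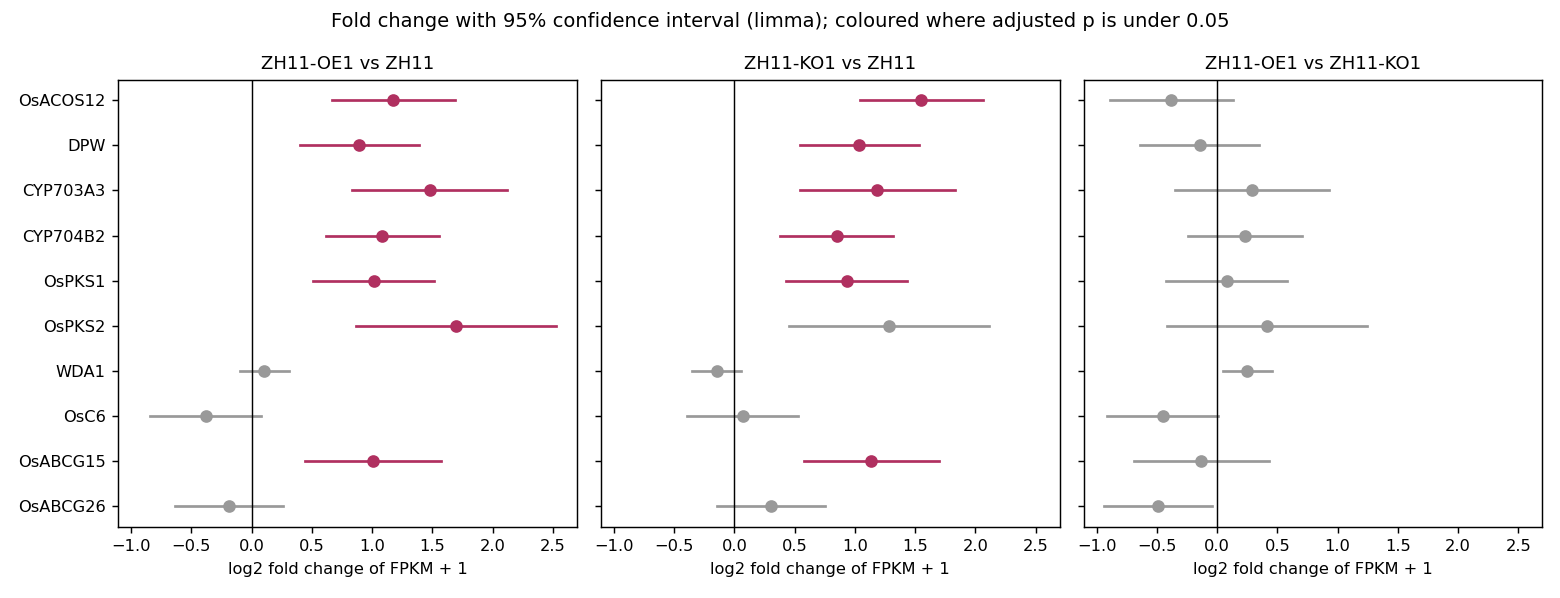
Log2 fold change of FPKM + 1 (x axis) of each gene (rows) in the 3 comparisons, with points at the limma estimate and lines for the 95% confidence interval, coloured where the adjusted p is under 0.05. The 7 coloured points of ZH11-OE1 vs ZH11 lie between 0.89 and 1.70, the 6 of ZH11-KO1 vs ZH11 between 0.85 and 1.55, and ZH11-OE1 vs ZH11-KO1 has none.

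The median log2 fold change of the 10 genes was 1.01 in ZH11-OE1 vs ZH11 and 0.98 in ZH11-KO1 vs ZH11, against -0.04 and -0.02 over all genes tested. In ZH11-OE1 vs ZH11, between 0.441 percent (*OsPKS2*) and 1.58 percent (*DPW*) of all genes tested had a larger fold change than each of the 7 genes that rose. In ZH11-KO1 vs ZH11, this share was between 0.413 percent (*OsACOS12*) and 2.09 percent (*CYP704B2*) for the 6 genes that rose. In ZH11-OE1 vs ZH11-KO1, the median of the 10 genes was -0.03, as over all genes tested (-0.03), and the confidence intervals of 8 of the 10 included 0. The other 2 were *WDA1* (0.05 to 0.45) and *OsABCG26* (-0.93 to -0.04), which had an unadjusted p under 0.05 in limma. A limma-voom fit of reads recovered from the FPKM also called 0 of the 10 in that comparison, with 3 at an unadjusted p under 0.05. For the 7 genes that rose in ZH11-OE1, the intervals of ZH11-OE1 vs ZH11-KO1 were wide, from -0.35 to 0.93 for *CYP703A3* and from -0.41 to 1.24 for *OsPKS2*, so unequal levels in the lines could be missed. Each gene whose libraries did not overlap had a two-sided exact permutation p of 0.1, the smallest that 3 libraries against 3 allow.

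**Figure D3:**
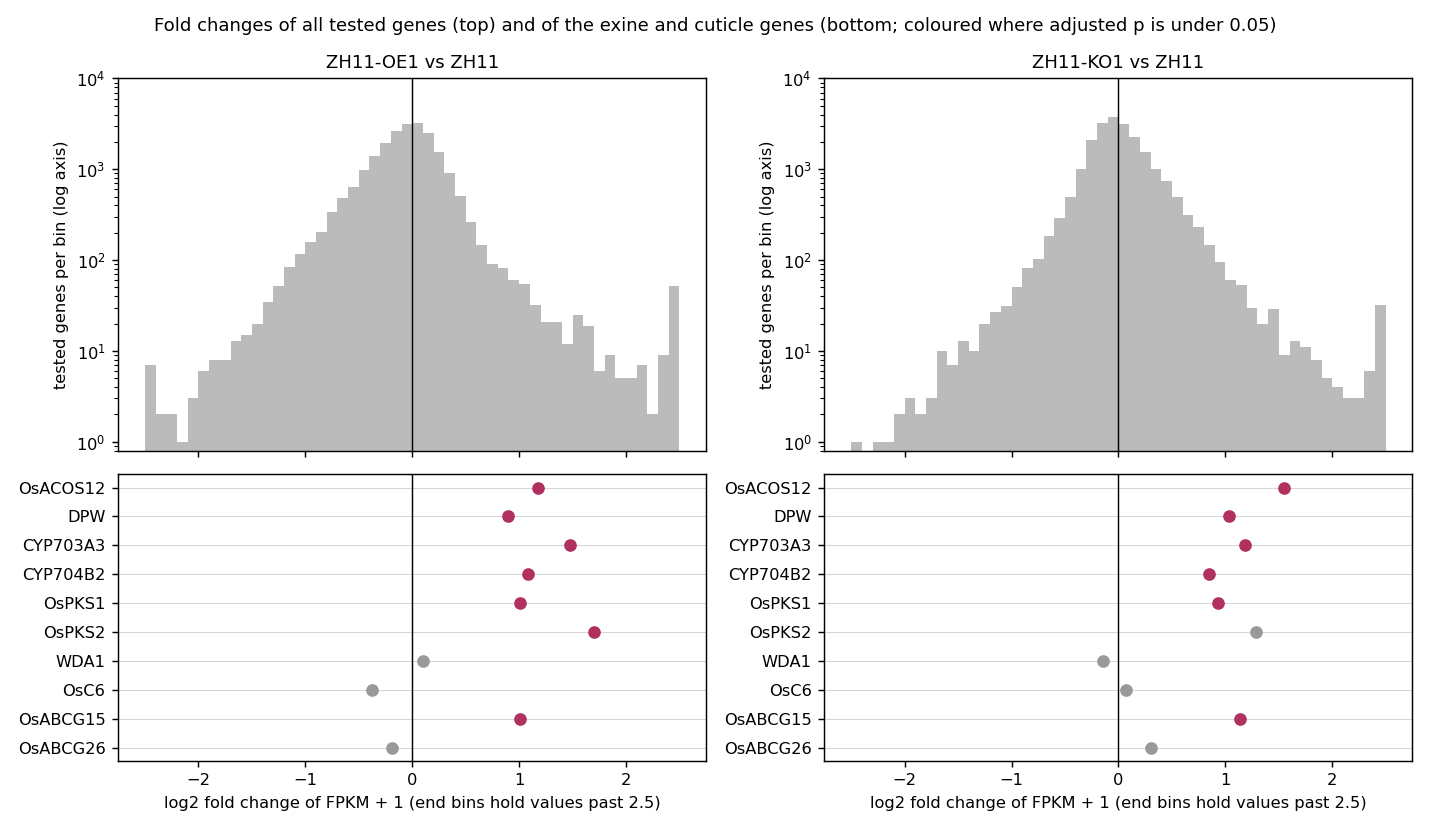
Top, number of tested genes (log axis) by log2 fold change of FPKM + 1 in ZH11-OE1 vs ZH11 and ZH11-KO1 vs ZH11, and bottom, the 10 exine and cuticle genes on the same x axis, coloured where the adjusted p is under 0.05. The genes that rose sit at 0.85 or above, in the right tail of all genes, while *WDA1*, *OsC6* and *OsABCG26* sit between -0.38 and 0.30.

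The calls rested on few libraries. In ZH11-OE1 vs ZH11, 7 genes were called without ZH11 replicate 2 or 3, 5 without ZH11-OE1 replicate 1, and 3 without ZH11-OE1 replicate 2, ZH11-OE1 replicate 3 or ZH11 replicate 1. In ZH11-KO1 vs ZH11, 7 were called without ZH11 replicate 2, but 2, 1 and 3 without ZH11-KO1 replicates 1, 2 and 3, and 2 and 1 without ZH11 replicates 1 and 3. With all 9 libraries, the count in ZH11-KO1 vs ZH11 was 2 when every gene above 0 was tested and 1 when ZH11-OE1 was left out of the model, but 7 when replicate numbers entered that model of ZH11-KO1 and ZH11 as a block, which was chosen after seeing the data. *OsACOS12* passed in both comparisons whichever of the 6 libraries compared was left out (adjusted p up to 0.0445 in ZH11-OE1 and 0.0298 in ZH11-KO1 from limma), and so did *CYP703A3* and *CYP704B2* in ZH11-OE1 (up to 0.0497 and 0.0434). In these fits, the log2 fold changes of the 7 genes stayed between 0.62 (*DPW*) and 2.18 (*OsPKS2*) in ZH11-OE1 and between 0.59 (*CYP704B2*) and 1.81 (*OsACOS12*) in ZH11-KO1.

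Within ZH11, the 7 genes varied together. Replicate 3 held the lowest ZH11 level of 8 of the 10 genes, which were these 7 and *OsC6*, and replicate 2 the highest of 7. The highest ZH11 library exceeded the lowest by 2.08 times for *OsPKS1* and up to 3.36 times for *OsPKS2*, and 5 of the 10 genes were above 2.21, the 95th percentile of this ratio over all genes tested, whose median was 1.26. In ZH11-OE1, the ratio was at most 1.35 for any of the 10 and 0 genes were above the 95th percentile of 2.08. In ZH11-KO1, *OsPKS2* (2.13) and *OsABCG26* (2.84) were above the 95th percentile of 2.03. Replicate 2 also held the highest level of 7 of the 10 genes in each transgenic line. In all 3 genotypes, 6 genes (*OsACOS12*, *DPW*, *CYP703A3*, *OsPKS1*, *OsPKS2* and *OsABCG15*) were highest in replicate 2. Such orders of replicates were not counted over all genes tested, so they are not shown to be particular to these genes. The ZH11 libraries of *WDA1* differed by 1.14 times.

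**Figure D4:**
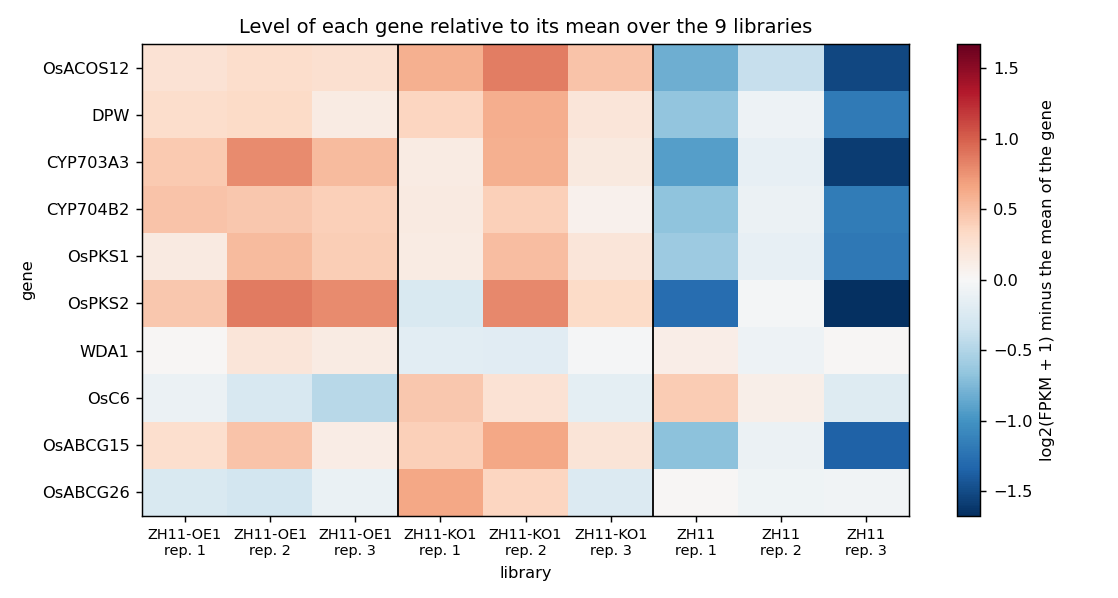
Level of each gene (rows) in each of the 9 libraries (columns, grouped by genotype) as log2(FPKM + 1) minus the mean of that gene, from blue (below the mean) to red (above it). ZH11 replicate 3 is the darkest blue column for the 7 genes that rose in ZH11-OE1, and the rows of *WDA1*, *OsC6* and *OsABCG26* do not follow them.

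Other genes of anther development were counted in lists written from background knowledge, with earlier results of these data known. The members of the lists are not named because no source used here pairs their identifiers with names. For comparison, 3.76 percent of all genes tested were called higher and 10 percent lower in ZH11-OE1 vs ZH11. These shares were 5.0 and 3.59 percent in ZH11-KO1 vs ZH11, and 8.09 and 15.8 percent in ZH11-OE1 vs ZH11-KO1. Of 13 other genes of the pollen wall and anther cuticle, all tested, 5 were higher and 2 lower in ZH11-OE1 vs ZH11 (median log2 fold change 0.15), and 4 were higher and 2 lower in ZH11-KO1 vs ZH11 (median 0.54). Their summed level was 1093 to 1167 FPKM in ZH11-OE1 and 1097 to 1305 FPKM in ZH11-KO1, against 1129.7 to 1602 FPKM in ZH11, so the sum was not higher in the lines although more members rose than fell. Of the 13, 3 were higher and 1 lower in ZH11-OE1 vs ZH11-KO1. Of 7 transcription factors that regulate the tapetum, 3 were higher and 0 lower in each line vs ZH11 (medians 0.47 in ZH11-OE1 and 0.51 in ZH11-KO1). Their summed level was 122 to 129.9 FPKM in ZH11-OE1 and 124 to 159.7 FPKM in ZH11-KO1, against 66.7 to 108 FPKM in ZH11, with ZH11 replicate 3 again the lowest, and 0 of the 7 were at 0. None of the 7 passed in ZH11-OE1 vs ZH11-KO1. In each line, 3 of the 7 lay entirely above ZH11 and 1 entirely below. The lowest log2 fold changes were -0.40 in ZH11-OE1 and -0.42 in ZH11-KO1. Over all genes tested, 12.6 and 14.2 percent lay entirely above, and 21.2 and 16.0 percent entirely below, in ZH11-OE1 and ZH11-KO1. The part of these regulators in the levels of the 10 genes was not tested. Of 10 meiosis genes, which mark meiocytes, 8 were tested and 0 passed in either line vs ZH11. In ZH11-OE1 vs ZH11, all 8 fold changes were positive (median 0.35). There, 3 of the 8 lay entirely above ZH11, against 12.6 percent of all genes tested. In ZH11-KO1 vs ZH11, 3 of the 8 were positive (median -0.03) and 0 lay entirely above. The summed level of the 10 meiosis genes was 41.0 to 53.8 FPKM in ZH11-OE1 and 31.0 to 38.3 FPKM in ZH11-KO1, against 31.9 to 37.0 FPKM in ZH11. Of the 8, 2 were higher and 0 lower in ZH11-OE1 vs ZH11-KO1, where all 8 fold changes were positive. The MADS genes of late pollen, 3 in all, were each under 1 FPKM and summed to at most 0.289 FPKM in ZH11-OE1 and 0.361 FPKM in ZH11-KO1, against 0.494 FPKM in ZH11.

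The 9 floral organ MADS genes, markers of the labelled tissue, were present in all genotypes, at a summed 1485 to 1750.1 FPKM in ZH11-OE1 and 1520.1 to 1655 FPKM in ZH11-KO1, against 1575 to 1771 FPKM in ZH11. In either line vs ZH11, 0 of the 9 passed the test, and in ZH11-OE1 vs ZH11-KO1 1 was higher and 2 lower. In ZH11-KO1, 4 of the 9 lay entirely below ZH11, against 16.0 percent of all genes tested, and in ZH11-OE1 0 did so. Of all genes tested, 8.09 percent were higher and 15.8 percent lower in ZH11-OE1 vs ZH11-KO1. In ZH11-OE1 vs ZH11, these shares were 3.76 and 10 percent, and in ZH11-KO1 vs ZH11 5.0 and 3.59 percent. Of 9 photosynthesis genes, markers of green tissue, 0 were higher and 5 lower in ZH11-OE1 vs ZH11 (median -0.48), where the summed level was 5089 to 5950.5 FPKM, against 7760.03 to 10514 FPKM in ZH11. In ZH11-KO1 vs ZH11, 0 of the 9 passed, at a summed 8010.3 to 8947 FPKM in ZH11-KO1. Of the 9, 5 were lower and 0 higher in ZH11-OE1 vs ZH11-KO1. Their part in the levels of the 10 genes was not tested.

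**Figure D5:**
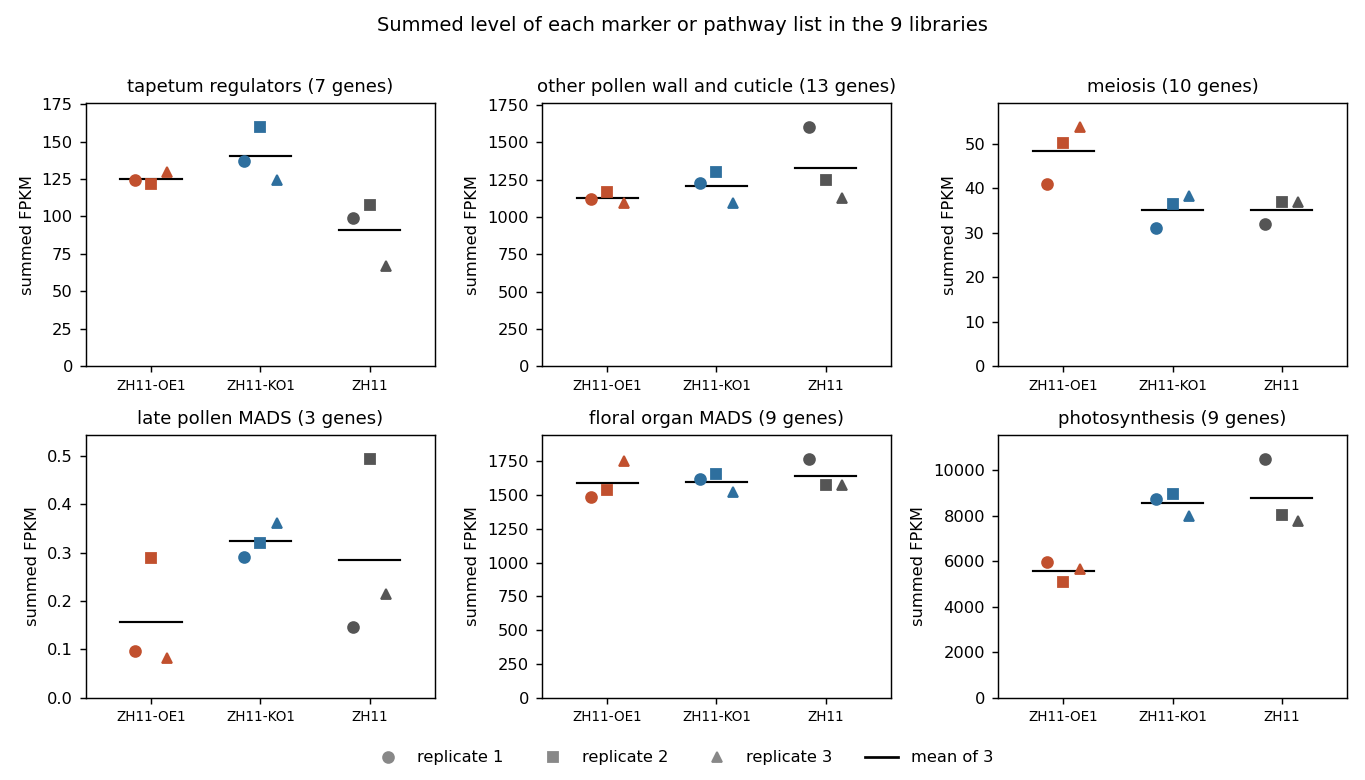
Summed FPKM (y axis, from 0) of 6 marker or pathway lists in the 9 libraries, grouped by genotype, with 1 marker per replicate number and a bar at the mean of 3 libraries. The sums of the tapetum regulators lie above those of the ZH11 libraries in both lines, and the sums of the photosynthesis genes lie below them in ZH11-OE1.

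Among the tested genes outside the 10, those whose 9-library profile was closest to the mean profile of the 10 were Os03g0186900 and Os07g0655800, with a root mean square difference of 0.0948 and 0.130 on the log2 scale. Of the 10 themselves, *DPW* (0.112) and *OsPKS1* (0.127) were nearest to that mean and *OsC6* (0.541) farthest. Each of the 10 is part of that mean, so its distance is not on a par with that of an outside gene. Os03g0186900 was at 230.4 ± 32.4 FPKM in ZH11-OE1 and 230.4 ± 23.6 FPKM in ZH11-KO1, against 130.3 ± 43.1 FPKM in ZH11 (SD, n = 3 each). Os07g0655800 was at 991 ± 83.3 FPKM in ZH11-OE1 and 1125 ± 95.5 FPKM in ZH11-KO1, against 619.6 ± 195 FPKM in ZH11 (SD, n = 3 each). These identifiers were chosen for this pattern, so no test is given.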

How the data were processed

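RNA from whole young panicles was sequenced in 9 libraries, 3 for each of ZH11-OE1, ZH11-KO1 and ZH11, which the study describes as independent repeats. Per the labels and methods, the authors aligned filtered reads to IRGSP-1.0 with HISAT2, counted them per gene with featureCounts and compared lines with DESeq2. The deposited values are the authors' FPKM. The sources used here do not give how counts became FPKM or whether counting used the strand, which leaves genes that overlap a neighbour or resemble a paralog uncertain.

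FPKM were tested as log2(FPKM + 1), which understates changes of low genes, with limma 3.58.1 in R 4.3.3. All 9 libraries entered 1 fit with a mean per genotype, a spread moderated with a trend on mean level, and two-sided p-values adjusted by Benjamini-Hochberg over the 21780 genes whose mean reached 1 FPKM. The step was also run on simulated data with independent noise for each gene, which leaves out genes that vary together. Plots and tables used Python 3.11.15, pandas 2.3.3, numpy 2.4.6, scipy 1.17.1 and matplotlib 3.10.9.

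FPKM of low genes step by whole reads, which gave library totals of 14227327 to 16405688 reads. With these totals, 100 percent of the 32208 genes above 0 came out as whole reads in every library within 1e-04 of a read, and these reads summed to 99.9 percent of each total. Reads in the text are these recovered reads, the smallest whole numbers that fit. Intervals from them cover counting error only.

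The 10 genes and the lists were chosen with earlier results of these data known. All 10 genes are named, no list member is, and the most alike genes are the 2 outside the 10 with the smallest root mean square difference. Of the 10, 0 identifiers and 2 symbols were in the RefSeq gene table used for names. No sequence is shown.

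The calls and fold changes of the 10 genes were recomputed without each of the 6 libraries compared, without the trend, with replicate numbers as a block, on the 2 groups compared alone, after quantile normalization, after median-of-ratios rescaling, with a pseudocount of 0.1, on all genes above 0, on genes with a mean of 5 FPKM or more, and requiring an absolute change of 1 on the log2 scale. Deviations from the group means of same-numbered libraries correlated at 0.234 to 0.316 across genes for ZH11-KO1 and ZH11, at -0.279 to 0.0234 for ZH11-OE1 and ZH11, and at -0.0649 to 0.0147 for ZH11-OE1 and ZH11-KO1. Libraries of unlike number correlated at -0.262 to -0.0218 for ZH11-KO1 and ZH11, but at up to 0.274 for ZH11-OE1 and ZH11. A correlation of this size therefore does not by itself show a pair. The numbers were taken to pair ZH11-KO1 and ZH11 as an assumption, from the data alone. For that comparison the blocked value is given beside a call it changes. The p-values measure the spread between these libraries.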

Additional observations from a re-analysis of the deposited data

How the results depend on the processing

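The count of the 10 genes higher in ZH11-OE1 than in ZH11 was 7 and lay between 3 and 7 with 1 library left out. Over all genes, 820 were higher there, and between 244 and 862 with 1 library left out. In ZH11-KO1 vs ZH11, the count of the 10 was 6, lay between 1 and 7 with 1 library left out, and was 2 with no filter. It was 1 when only these genotypes were fitted, against 7 in that fit with the replicate block, which was added after seeing the data. Over all genes, 1090 were higher in ZH11-KO1 vs ZH11, and between 229 and 1299 with 1 library left out. This number was 682 with no filter, 583 when only these genotypes were fitted, and 1718 in that fit with the block. Both counts of the 10 genes were 0 when the genes at 0 in all libraries, which have no spread, also entered the fit. This alternative was added after seeing the data, and in it 196 and 262 of all genes were still higher. In ZH11-OE1 vs ZH11-KO1, the count higher was 0 and became 1 with median-of-ratios rescaling or quantile normalization (*WDA1* in each), and the count lower was 0 and became 1 when only these genotypes were fitted (*OsACOS12*) and with the replicate block (*OsC6*, adjusted p = 0.0367), and lay between 0 and 1 with 1 library left out (*OsABCG26* without ZH11-KO1 replicate 3). The replicate block gave 7 genes higher in each line vs ZH11, adding *OsPKS2* in ZH11-KO1, and apart from *OsC6* changed no other call among the 10. The limma-voom fit of recovered reads, added after seeing the data, also gave 7 and 7. The remaining alternatives kept these counts within 1.5 times. Of single genes, *OsC6* in ZH11-KO1 vs ZH11 was 0.07, became -0.078 with quantile normalization and ranged from -0.087 to 0.24 with 1 library left out. *OsPKS1* in ZH11-OE1 vs ZH11-KO1 (0.08) ranged from -0.0017 to 0.20 with 1 library left out, and *OsC6* there was -0.45 and became 0.024 with quantile normalization. *OsC6* in ZH11-OE1 vs ZH11 was -0.38 and became -0.054 with quantile normalization. *OsABCG26* was -0.19 in ZH11-OE1 vs ZH11 (-0.35 with a pseudocount of 0.1 and -0.38 with limma-voom), 0.30 in ZH11-KO1 vs ZH11 (0.45 and 0.50 with the same alternatives) and -0.49 in ZH11-OE1 vs ZH11-KO1 (-0.80 and -0.88), and did not pass in these fits. The causes were not tested. Of all genes called in ZH11-OE1 vs ZH11, 27.3 percent were higher, against 39.9 percent with median-of-ratios rescaling and 40.3 percent with quantile normalization, and in ZH11-OE1 vs ZH11-KO1 33.9 percent, against 51.3 percent with quantile normalization. *OsABCG26* had 30 to 96 reads per library and the other 9 genes at least 89. Its counting intervals in ZH11-KO1 replicate 1 (1.90 to 2.87 FPKM) and replicate 3 (0.557 to 1.18 FPKM) did not overlap, so these libraries differed by more than counting error.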
